A study of Rattus norvegicus with 63 samples.

Results

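Liver miRNAs were measured in rats given C.I. Direct Black (CIDB) for 7 days. All samples came from the livers of male Wistar Hanover rats that were 8 to 10 weeks old at assignment. The 3 CIDB rats received the dye in corn oil by gastric gavage at 146 mg/kg/d and were labelled with control set 3, the 3 rats (numbered 4 to 6) that received corn oil (CO) alone for 7 days. The members are all 350 rat miRNAs on the array, of which 162 were detected on at least 1 array and tested. These 6 arrays are part of 63, 1 per rat, in 21 groups of 3 rats. For comparison, 3 rats received the other genotoxic carcinogen of the study, dimethylnitrosamine (DMN), in corn oil at 4 mg/kg/d for 7 days and share CO set 3, and the 3 rats of CO set 4 received corn oil for 14 days. The methods state that the dose was one reported to cause liver tumours and that only treated rats with some histopathological change of the liver were put on arrays, so that rats with an unchanged liver are not represented.

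CIDB is an azo dye. Dyes of this kind are reduced in the gut and liver to benzidine, and its metabolites bind to DNA. DMN reaches DNA by another route, since hepatocytes oxidize it to a product that methylates DNA. A mature miRNA is a short RNA cut from 1 arm of a hairpin, and its seed, bases 2 to 8 from the 5′ end, pairs with the mRNAs that it represses. Damage to DNA activates the transcription factor p53, and the miR-34 genes are among its direct targets. In the liver, miR-122 and miR-192 are typical of hepatocytes, miR-142 and miR-223 of leukocytes, and the miR-200 family of epithelia such as that of the bile ducts.

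Some sequences are shown because the results turn on them, with the seed in capitals. They come from the rat assembly GRCr8 of RefSeq, which held 30 of the 33 arms looked up, and were matched to the array by name. The first set is the miR-34 family, whose members share a seed but differed in signal.
miR-34a: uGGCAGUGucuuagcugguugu
miR-34b: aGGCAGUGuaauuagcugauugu
miR-34c: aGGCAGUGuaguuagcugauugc
The second set holds the miR-29 family, which shares another seed, followed by other miRNAs that were higher in CIDB. Of the family, miR-29b and miR-29c were called higher and miR-29a was not.
miR-29a: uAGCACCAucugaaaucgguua
miR-29b: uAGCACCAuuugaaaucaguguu
miR-29c: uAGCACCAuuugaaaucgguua
miR-21: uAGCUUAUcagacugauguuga
miR-25: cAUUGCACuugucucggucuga
miR-322: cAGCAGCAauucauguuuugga
The third set holds miRNAs that were lower in CIDB, among them miR-103 and miR-107, which share their seed.
miR-192: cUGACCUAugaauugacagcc
miR-122: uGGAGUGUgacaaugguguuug
miR-26a: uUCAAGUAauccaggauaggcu
miR-23b: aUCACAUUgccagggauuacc
miR-223: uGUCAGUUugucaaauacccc
miR-103: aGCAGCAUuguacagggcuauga
miR-107: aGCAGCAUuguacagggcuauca
The last set is shown for the comparison with DMN, in which miR-15b and miR-16, with the same seed as miR-322, differed in the opposite direction.
miR-142-3p: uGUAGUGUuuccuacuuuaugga
miR-15b: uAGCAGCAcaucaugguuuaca
miR-16: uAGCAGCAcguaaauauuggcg

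Levels are log2 intensities of the spots, without background correction and after quantile normalization, and a miRNA was called when its adjusted p in limma over all 63 arrays was below 0.05. Background left in the values keeps dim miRNAs between about 7.4 and 7.6 and makes their differences smaller. A miRNA counts as well above background in a rat when the scanner software marked most spots of 1 of its probes so. CIDB rat 2 stood apart before any comparison. Its array lay on slide 9 and was scanned on day 3, with a median spot brightness of 78 units and 151 miRNAs detected. The other rats of the 4 groups were scanned on day 1, with 193.5 to 214 units and 81 to 111 miRNAs detected. CIDB rat 3 shared slide 3 with all rats of CO set 3, and CIDB rat 1 shared slide 2 with all DMN rats. The part of slide and scan day in the results was not tested. Calls against CO set 3 that were lost without rat 2 are listed below, and values without it are given for some miRNAs. In the authors' table of log2 values, 15 columns of 5 groups not compared here followed arrays of another of these groups, always as whole groups, and each CIDB and CO set 3 column followed its own array.

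In CIDB livers miR-34a rose by more than any other miRNA, and miR-21 rose with it. Of the miRNAs listed for hepatocytes, miR-192 and miR-193 fell, although miR-192 was not called in the processed signal. Others of that list did not fall. miR-101a and miR-101b were called higher in the processed signal, and miR-101b also in the authors' table. Of the 162 miRNAs, 33 (20.4%) were called in CIDB vs. CO set 3. The share was 13% for the 21 miRNAs that were higher and 7.41% for the 12 that were lower, and 56 miRNAs (34.6%) had an unadjusted p below 0.05. All CIDB rats lay above or all lay below all controls in 51 miRNAs (31.5%), including 19 of those called higher and all 12 called lower. Between the CO sets of 7 and 14 days limma called 0 miRNAs, with 11 (6.79%) below an unadjusted p of 0.05. The median log2 fold change over all tested miRNAs was 0.0041, on a scale that gives all arrays the same distribution. Without CIDB rat 2, 29 miRNAs (17.9%) were called, 25 of them among the 33. The calls lost were those of miR-107, miR-152, miR-223, miR-29b, miR-345-5p, miR-664, miR-93 and miR-99a. Within scan day 1, 12 miRNAs were called higher and 9 lower. A fit within slide 3 set CIDB rat 3 alone against the 3 controls there. It took its spread from these controls and from the rats given diethylstilbestrol (DES) on that slide. With 1 CIDB rat, only log2 fold changes are given from it. With slide as a block in the fit of all arrays, 15 were called higher and 10 lower, 20 of them among the 33.

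**Figure D1:**
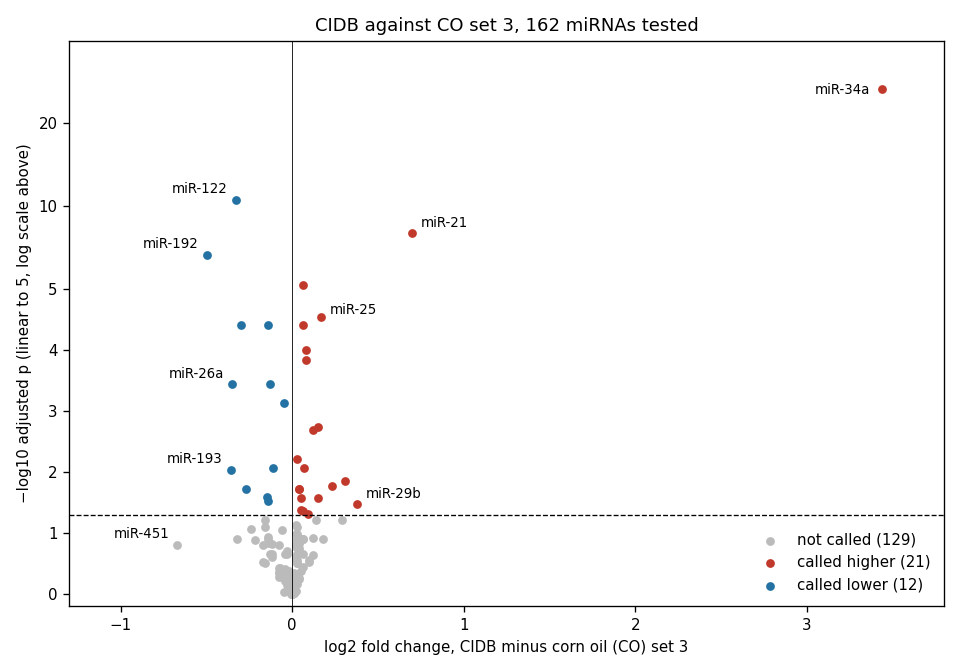
Log2 fold change (x axis, CIDB minus CO set 3) against −log10 adjusted p from limma (y axis, linear to 5 and logarithmic above) for the 162 tested miRNAs. The dashed line marks an adjusted p of 0.05; 21 miRNAs are called higher (red) and 12 lower (blue), and miR-34a lies apart from all others at 3.44.

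Of the 33 called miRNAs, 16 were well above background in all 6 rats. Another 9 were well above background in at most 1 CIDB rat and in 0 controls (miR-18a, miR-21*, miR-29c*, miR-322*, miR-34b, miR-500, miR-542-3p, miR-664 and miR-99a*). Their signals lay close to background, so only levels and the test are given for them, and no fold. Here a star marks the arm of a hairpin that is usually the less abundant. A further 4 (miR-125a-5p, miR-152, miR-429 and miR-93) were well above background in all CIDB rats and in 0 controls, which gives only a bound. It was at least 1.05-fold for miR-429, at least 1.02-fold for miR-93 and at least 1.01-fold for miR-125a-5p. These bounds take the dimmest measured signal of each control array as the upper limit of what was not measured. For miR-152 the bound was below 1. Another 5 miRNAs were well above background in all CIDB rats and in 0 controls without being called, namely miR-181a, miR-200c, miR-22*, miR-333_v11.0 and miR-652, and 0 miRNAs were so in the controls alone. Every CIDB array had more miRNAs well above background than every control array, 88, 133 and 91 against 80, 76 and 66. The part of this difference between arrays in the split was not tested.

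miR-34a, the p53 target that represses genes of the cell cycle, was at 11.27, 11.23 and 11.46 in the CIDB rats and at 8.03, 7.85 and 7.77 in CO set 3. The lowest CIDB rat lay more than 3 log2 units above the highest control. The log2 fold change was 3.44 (SE 0.12, n = 3 per group, adjusted p = 1.77e-27 in limma), or 10.8-fold with the background left in. It was 3.58 for CIDB rat 3 against the controls on its slide and 3.48 without rat 2. Its probes gave 3.11 to 3.76. The hairpin lies on chromosome 5 (GRCr8, chr5:165815952-165816053, + strand), within the span of a lncRNA gene. In the scanner's processed signal, which has the background subtracted, the CIDB rats were at 11.80, 11.60 and 11.84 and the controls at 6.14, 5.51 and 5.42, a log2 difference of 6.06. In the authors' value table the difference was 5.65.

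The other members of the family stayed close to background. miR-34b was at 7.56, 7.56 and 7.57 in CIDB and at 7.50, 7.50 and 7.46 in CO set 3 (adjusted p = 0.00868 in limma), and was well above background in 1 CIDB rat. Its call was lost without control rat 6. miR-34c was at 7.47, 7.51 and 7.48 against 7.46, 7.45 and 7.47 and was not called (adjusted p = 0.127). Both come from 1 stretch of 602 bases on chromosome 8, apart from the gene of miR-34a. Of the list of 10 miRNAs tied to p53, 7 were tested, of which 2 were called higher (miR-34a and miR-34b) and 2 lower (miR-192 and miR-107), beside 13% and 7.41% of all tested miRNAs. The median log2 fold change of the list was -0.06, beside 0.0041 over all tested miRNAs.

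miR-21, which is induced in injured and growing tissue, was at 12.86, 13.29 and 13.16 in CIDB and at 12.44, 12.37 and 12.42 in CO set 3. The groups did not overlap, and rat 2 was the highest of the CIDB rats. The log2 fold change was 0.70 (SE 0.08, adjusted p = 1.11e-08 in limma) and 0.60 without rat 2. The opposite arm, miR-21*, was called higher (adjusted p = 9.95e-05) at 7.43, 7.52 and 7.49 against 7.40, 7.40 and 7.41, and was well above background in 1 CIDB rat only. Of the 6 miRNAs listed for injury and growth, 4 were tested and miR-21 was the only 1 called, higher beside 13% of all tested miRNAs.

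Most hairpins with both arms tested did not have both called, and miR-99a had both called lower. Both arms of a hairpin were called higher in 3 cases, miR-21, miR-29c and miR-322. Their hairpins are printed 5′ to 3′ with the mature arms in capitals.
Mir21: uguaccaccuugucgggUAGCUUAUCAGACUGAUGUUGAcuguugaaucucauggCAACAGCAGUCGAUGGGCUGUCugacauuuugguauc
Mir29c: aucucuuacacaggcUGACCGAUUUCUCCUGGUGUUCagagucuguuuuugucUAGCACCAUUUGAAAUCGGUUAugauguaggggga
Mir322: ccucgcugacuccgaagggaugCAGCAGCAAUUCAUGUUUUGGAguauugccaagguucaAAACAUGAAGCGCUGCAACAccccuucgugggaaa
Mir21 lies at chr10:71902600-71902691 (- strand) outside other annotated genes, Mir29c at chr13:109099359-109099446 (+ strand) and Mir322 at chrX:137726147-137726241 (- strand), the latter 2 within the spans of lncRNA genes of GRCr8. All 3 weaker arms were near background, with levels of 7.50 to 7.51 in CIDB and 7.43 to 7.46 in CO set 3 for miR-29c*, and at 7.42 to 7.44 and 7.39 to 7.40 for miR-322*.

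**Figure D2:**
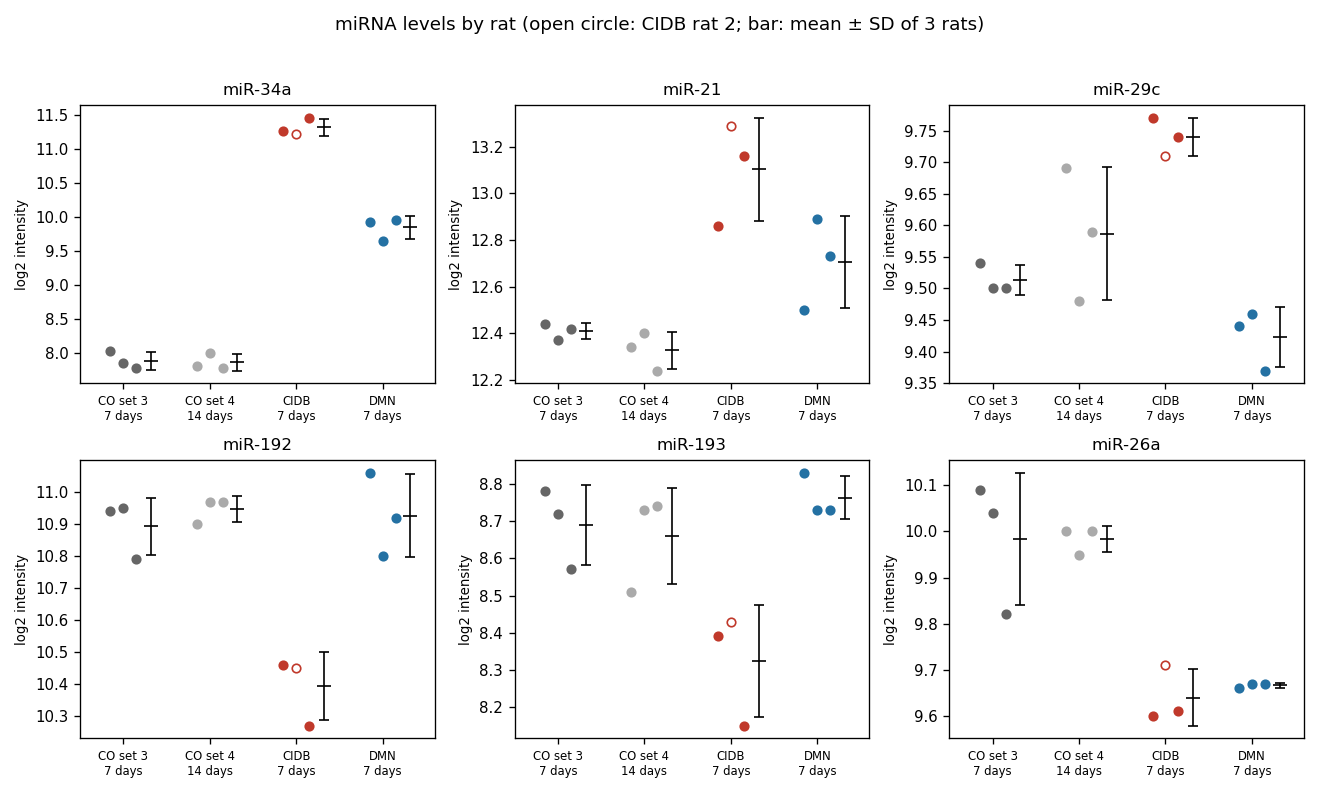
Log2 intensity (y axis, a scale of its own in each panel) of 6 miRNAs in each rat of CO set 3, CO set 4, CIDB and DMN, with the mean ± SD of 3 rats and CIDB rat 2 as an open circle. miR-34a, miR-21 and miR-29c are higher and miR-192, miR-193 and miR-26a lower in all 3 CIDB rats than in all 3 rats of CO set 3.

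The miR-29 family, which represses collagens, had 2 of its 3 members called higher, beside 13% of all tested miRNAs. miR-29c was at 9.77, 9.71 and 9.74 in CIDB and at 9.54, 9.50 and 9.50 in CO set 3, a rise of 0.23 on the log2 scale (SE 0.07, adjusted p = 0.0171 in limma). miR-29b was at 9.84, 9.88 and 9.90 against 9.43, 9.38 and 9.67 (log2 fold change 0.38, SE 0.13, adjusted p = 0.0341). The groups did not overlap in either, but rat 1 of CO set 4 reached 9.77 for miR-29b and 9.69 for miR-29c, between the ranges of the groups compared. The call of miR-29c was lost without control rat 5. The call of miR-29b was lost when any rat but control rat 6 was left out, with adjusted p from 0.0542 to 0.133. miR-29a had a log2 fold change of -0.08 and was not called (adjusted p = 0.524), and its processed signal gave 0.43 (adjusted p = 0.00424) in a setting in which the median of the 71 miRNAs detected on all arrays was 0.16 in place of -0.06. miR-29b and miR-29c share a stretch of 616 bases on chromosome 13, while miR-29b has a second copy beside miR-29a on chromosome 4. All 3 tested arms of the stretch on chromosome 13, miR-29c* among them, were called higher. Hairpins within 10000 bases of each other were joined into stretches, of which 33 had more than 1 tested miRNA. Some of these are a single hairpin with both arms tested. Most of the 33 did not have all arms called.

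The miR-200 family, which holds cells in an epithelial state, had 3 of its 5 members called higher, beside 13% of all tested miRNAs. miR-200b was at 8.29, 8.11 and 8.09 in CIDB and at 7.80, 7.78 and 8.00 in CO set 3 (log2 fold change 0.31, SE 0.09, adjusted p = 0.0143 in limma). Its neighbour miR-200a, 873 bases from end to end with it on chromosome 5, was at 7.87, 7.81 and 7.85 against 7.68, 7.65 and 7.75 (log2 fold change 0.15, adjusted p = 0.0265). miR-429 was at 7.70, 7.62 and 7.67 against 7.52, 7.52 and 7.59, the bound of at least 1.05-fold given above (adjusted p = 0.00206). All 3 CIDB rats lay above all 3 controls in each of these, with control rat 6 nearest to the treated rats. The calls of miR-200a and miR-200b were each lost on leaving out control rat 4, control rat 5 or CIDB rat 1, and that of miR-200a also without CIDB rat 3. miR-200c was at 7.72, 7.72 and 7.69 against 7.62, 7.59 and 7.48 and was not called (adjusted p = 0.0623), although it was well above background in all CIDB rats and in 0 controls. miR-141 was not called either (adjusted p = 0.124). The processed signal called miR-200c higher as well (0.39, adjusted p = 0.000116), and the value table called all 5, with 1.01 for miR-200c (adjusted p = 0.0461) and 0.63 for miR-141 (adjusted p = 0.0145). The summed intensity of the family was 1099 to 1153 units in the CIDB rats and 976 to 1022 in the controls, background included.

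Of the 10 tested miRNAs of the miR-17 to miR-92 and miR-106b clusters, which are linked to proliferation, 3 were called higher and 0 lower, beside 13% and 7.41% of all tested miRNAs. The median log2 fold change of the list was 0.03, and miR-92a had -0.12 (adjusted p = 0.221). miR-25, whose hairpin lies within the span of the replication gene Mcm7, was at 8.07, 8.03 and 8.02 in CIDB and at 7.87, 7.88 and 7.88 in CO set 3. The rise of 0.17 log2 units (SE 0.03, adjusted p = 2.89e-05 in limma) exceeded the spread of either group, and the processed signal gave 0.64. miR-93, 290 bases from end to end with miR-25, was at least 1.02-fold higher (adjusted p = 0.0425), and its call was lost in 4 of the 6 fits that left out a rat. miR-106b of the same cluster was not called (log2 fold change 0.01, adjusted p = 0.916). The third was miR-18a, near background at 7.52, 7.52 and 7.54 against 7.46, 7.46 and 7.47 (adjusted p = 6.63e-06) and the only 1 of 7 tested arms of the miR-17 to miR-92 cluster on chromosome 15 that was called.

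miR-322, the rodent counterpart of a human miRNA that holds back the cell cycle, was at 7.98, 8.04 and 8.17 in CIDB and at 7.92, 7.91 and 7.90 in CO set 3. The log2 fold change was 0.15 (SE 0.04, adjusted p = 0.00183 in limma), and CIDB rat 1 lay closest to the controls. With miR-542-3p, near background (adjusted p = 0.0189), it lies in a stretch of 4066 bases on chromosome X. All 3 tested arms there, miR-322* among them, were called higher. The call of miR-322 was lost without CIDB rat 3. miR-15b, miR-16, miR-195 and miR-497, the other miRNAs listed with it, were not called, with log2 fold changes of -0.07, -0.24, -0.22 and -0.17. The remaining miRNAs called higher were miR-125a-5p, at least 1.01-fold (adjusted p = 0.000149), miR-345-5p with a log2 fold change of 0.09, and miR-152, miR-500 and miR-664, for which no fold is given. In miR-345-5p and miR-542-3p a CIDB rat lay within the range of the controls, and the calls of miR-152, miR-345-5p, miR-500, miR-542-3p and miR-664 were each lost on leaving out at least 2 of the 6 rats in turn.

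Among the miRNAs typical of hepatocytes 3 of 7 were called lower and 0 higher, beside 7.41% of all tested miRNAs called lower. This count depends on the signal, and it includes miR-122, whose level is limited by the normalization as described below. In the processed signal miR-193 was called lower and miR-101a and miR-101b higher, and in the value table miR-192 and miR-193 were called lower and miR-101b higher. miR-192, which is abundant in hepatocytes and has been tied to p53, was at 10.46, 10.45 and 10.27 in CIDB and at 10.94, 10.95 and 10.79 in CO set 3. It fell by 0.50 on the log2 scale (SE 0.07, adjusted p = 2.28e-07 in limma), 1.41-fold, and lay below all controls in each CIDB rat. In the authors' value table it fell by 0.50 as well (adjusted p = 0.000192), while the processed signal gave -0.09 and no call (adjusted p = 0.894). miR-194, its neighbour on chromosome 1, was not called (log2 fold change -0.14, adjusted p = 0.124). In RNA from whole liver, fewer cells of a type and less RNA per cell cannot be told apart.

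miR-193 was at 8.39, 8.43 and 8.15 in CIDB and at 8.78, 8.72 and 8.57 in CO set 3. It fell by 0.36 on the log2 scale (SE 0.10, adjusted p = 0.00922 in limma), and both the processed signal and the value table gave a larger fall, -0.60 and -0.91. Its call was lost without CIDB rat 3, the lowest of the rats, which alone gave -0.54 against the controls on its slide. miR-122, the dominant miRNA of the hepatocyte, was at 14.49, 14.25 and 14.21 against 14.68, 14.67 and 14.59, a fall of 0.33 (SE 0.03, adjusted p = 3.04e-11). This call depends on the scale. Quantile normalization gives the brightest spots of every array the same values, so miR-122 had little room to rise. Its group means were 14.56 to 14.67 in all other groups. Its probes ranged from -0.66 to 0.00091, the processed signal gave 0.08 (adjusted p = 0.921) and the value table -0.04 (adjusted p = 0.928). The summed intensity of the 7 hepatocyte miRNAs was 22645 to 26700 units in CIDB and 28693 to 30886 in CO set 3, of which miR-122 made up 81.9% to 86.5%. Without miR-122 the ranges overlapped, at 3618 to 4299 and 4010 to 4590 units. Whether the miRNAs miR-101a and miR-101b of this list moved was not settled, with log2 fold changes of 0.12 and 0.29 and adjusted p of 0.123 and 0.0623. The processed signal called both higher (0.53 and 0.76, adjusted p = 0.000248 and 5.13e-05), and the value table gave 0.27 without a call and 0.39 with one (adjusted p = 0.067 and 0.041).

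Other miRNAs that fell are known to act on growth and metabolism. miR-26a, which restrains growth of liver cells, was at 9.60, 9.71 and 9.61 in CIDB and at 10.09, 10.04 and 9.82 in CO set 3 (fall of 0.35, SE 0.07, adjusted p = 0.000368 in limma). miR-23b, which lies in the span of Aopep on chromosome 17 with miR-27b and miR-24, was at 9.49, 9.56 and 9.53 against 9.81, 9.96 and 9.70 (fall of 0.30, SE 0.05, adjusted p = 3.98e-05). Its neighbours miR-27b and miR-24 were not called, with log2 fold changes of -0.16 and -0.01, nor were miR-23a and miR-27a of the paralogous cluster, with 0.10 and 0.12. Neither miR-26a nor miR-23b was called in the processed signal, where their values were -0.15 and -0.11.

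miR-103 and miR-107, which are nearly the same in sequence and may share signal on the array, lie within the pantothenate kinase genes Pank2 and Pank1. miR-103 was at 7.94, 7.90 and 7.95 in CIDB and at 8.05, 8.08 and 8.05 in CO set 3 (fall of 0.13, adjusted p = 0.000368 in limma). miR-107 fell by 0.14 (adjusted p = 0.0298), a call lost in 4 of the 6 fits without a rat. miR-7a was at 7.56, 7.54 and 7.57 against 7.67, 7.73 and 7.69 and fell by 0.14 (adjusted p = 3.98e-05), and by 0.42 in the processed signal (adjusted p = 5.13e-05). In that signal the CIDB rats were at 4.88, 4.88 and 4.90, where 4.88 is the floor, so the value of 0.42 was limited by the floor. miR-7a was 1 of 3 miRNAs called lower there. Another, miR-214, had only control rat 6 above the floor, at 4.95. miR-99a, a regulator of the growth kinase mTOR, fell by 0.27 (adjusted p = 0.0193) and was no longer called without CIDB rat 2 (adjusted p = 0.104), control rat 4 or control rat 6. Its other arm miR-99a*, near background, was called lower too (adjusted p = 0.00073). miR-210, which hypoxia induces, fell by 0.11 (adjusted p = 0.00868), and its call was lost without control rat 5.

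**Figure D3:**
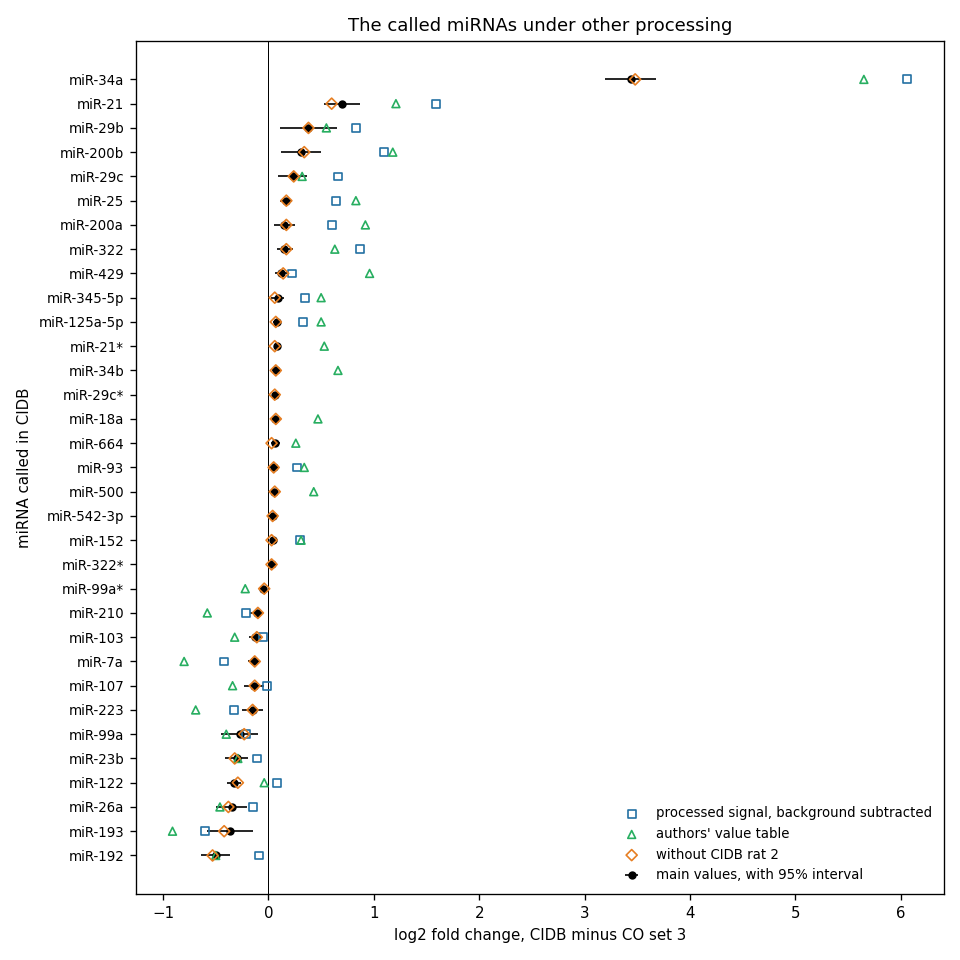
Log2 fold change (x axis, CIDB minus CO set 3) of the 33 called miRNAs (rows, sorted by the main value) with 95% intervals (black), in the background-subtracted processed signal (squares, left out where all rats are at the floor), in the authors' value table (triangles, where listed) and without CIDB rat 2 (diamonds). The diamonds lie close to the main values, while miR-34a moves from 3.44 to 5.65 and 6.06 and miR-122 from -0.33 to -0.04 and 0.08.

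Of the 33 called miRNAs, 30 are in the authors' value table, and 28 of these were called there, where 31 of 135 miRNAs were called higher (23%) and 14 lower (10.4%). In the processed signal 38 were called higher (23.5%) and 3 lower (1.85%), against 21 and 12 on the main scale, and 15 of the 33 were called in the same direction. The median log2 fold change of the 71 miRNAs detected on all arrays was 0.16 in this signal and -0.06 on the main scale. let-7a, let-7c and let-7f, tumour suppressors of the let-7 family that had -0.08, -0.08 and -0.06 on the main scale without a call, were called higher there at 0.36, 0.34 and 0.37. These values include the shift between the 2 medians, and the direction of the let-7 family was not settled. miR-34a and miR-21 were called in all 24 settings compared, with log2 fold changes of 3.37 to 6.13 and 0.60 to 1.59. miR-125a-5p, miR-25, miR-429 and miR-7a were called in 23 of 24.

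The lists of markers of other cells are short, and with 20.4% of all tested miRNAs called they could hold few calls or none. Of 6 leukocyte miRNAs only miR-223, the myeloid miRNA, was called, beside 20.4% of all tested miRNAs. It was lower, at 7.74, 7.71 and 7.72 against 7.88, 7.82 and 7.93 (fall of 0.15, adjusted p = 0.0259 in limma), and this call was lost in 4 of the 6 fits without a rat. The summed intensity of these 6 was 1320 to 1354 units in CIDB and 1370 to 1461 in CO set 3. The 2 red cell miRNAs varied most between rats. miR-451 was at 9.54, 8.72 and 8.98 in CIDB and at 9.63, 9.38 and 10.22 in CO set 3, and its log2 fold change of -0.67 (SE 0.35) was not called (adjusted p = 0.158). miR-144 had -0.32 (adjusted p = 0.124), but in the value table -1.21 with a call (adjusted p = 0.0296). None of the 7 tested miRNAs of stellate, smooth muscle and endothelial cells was called, beside 20.4% of all tested miRNAs. Their summed intensities were 2272 to 2410 units in CIDB and 2301 to 2427 in CO set 3. Of 10 markers of muscle, heart, brain and pancreas, 9 were well above background on no array. None of the 8 tested let-7 miRNAs and none of the 5 tested miR-30 miRNAs was called, beside 20.4% of all tested miRNAs. Nor were miR-181a and miR-96 called, the only tested members of their lists.

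Set directly against DMN, CIDB livers had more miR-34a and more of 4 of the 5 miR-200 miRNAs. CIDB livers had less of 5 of the 6 leukocyte markers, not all of them well above background. They also had less miR-192, although this was not called in the processed signal, and the hepatocyte miRNAs differed in both directions. The doses differ, and both groups share CO set 3, so their changes from it are not independent. Of 162 miRNAs 53 (32.7%) were called, 31 (19.1%) higher and 22 (13.6%) lower in CIDB than in DMN. Of the 21 miRNAs called higher in CIDB against CO set 3, 13 were also higher than in DMN, and of the 12 called lower, 8 were also lower than in DMN. The same CIDB rats enter both comparisons, so these 2 counts are not independent of the calls against CO set 3. Without CIDB rat 2, 46 miRNAs (28.4%) were called. With slide as a block, 12 were called higher and 17 lower.

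miR-34a was at 9.93, 9.65 and 9.96 in DMN, above the controls but below every CIDB rat. CIDB exceeded DMN by 1.47 log2 units (SE 0.12, adjusted p = 2.28e-13 in limma), where the change from CO set 3 was 3.44 in CIDB and 1.96 in DMN. miR-34b went the other way. It was at 7.80, 7.61 and 7.67 in DMN, and CIDB lay 0.13 log2 units below (adjusted p = 1.01e-06), and miR-34c was also called lower than in DMN (adjusted p = 0.0144). Both were close to background, with miR-34b well above it in 1 rat of either group. miR-21 was at 12.50, 12.89 and 12.73 in DMN, so that the ranges of both groups overlapped, and CIDB was higher by 0.40 (SE 0.08, adjusted p = 0.000215), but by 0.16 and without a call with slide as a block (adjusted p = 0.42).

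**Figure D4:**
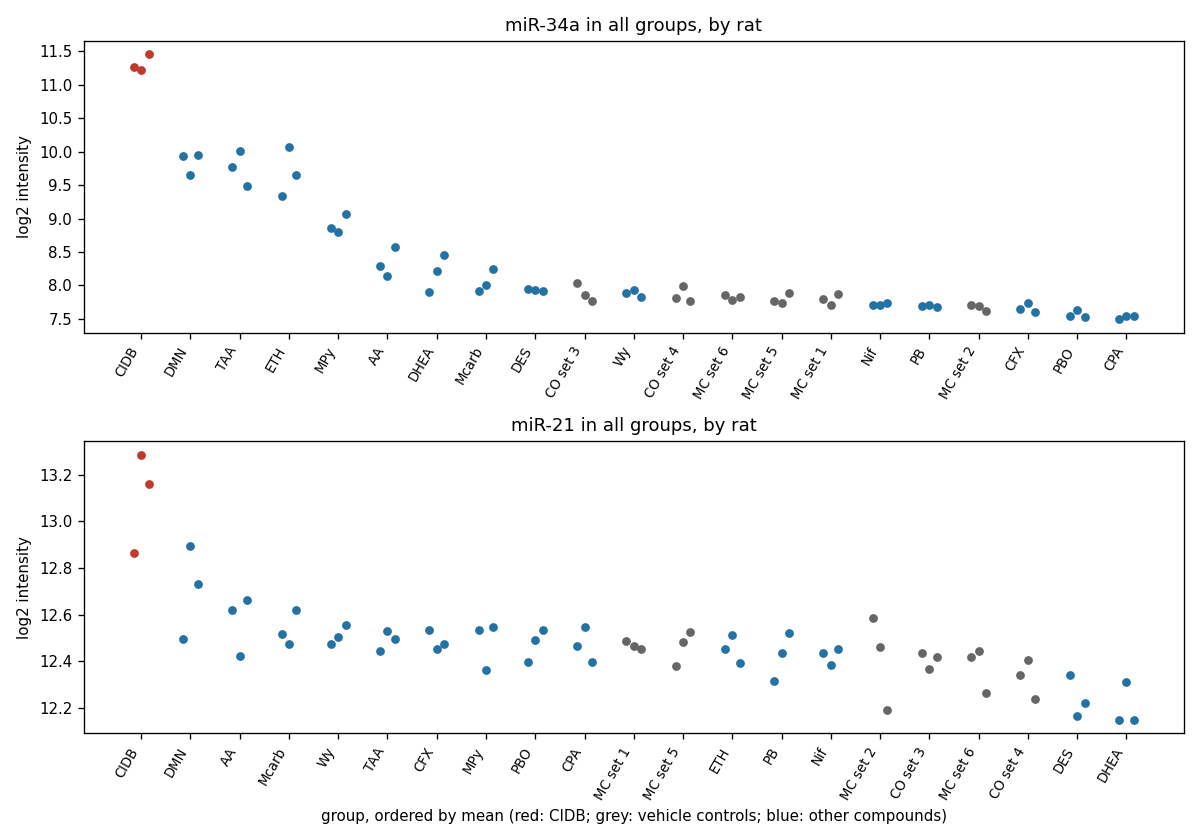
Log2 intensity (y axis) of miR-34a and miR-21 in each of the 63 rats, by group in order of the group mean (x axis; CIDB red, vehicle controls grey, other compounds blue). The CIDB rats lie at 11.23 to 11.46 for miR-34a, above every other rat; for miR-21 they lie at 12.86 to 13.29, where the DMN rats reach 12.89. DES and DHEA, and MC sets 1, 2 and 5, may be exchanged as whole groups, as described for the value table.

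In order of the group means over all 21 groups, CIDB came first for miR-34a at 11.32 ± 0.125 (SD, n = 3) and DMN second at 9.85 ± 0.17. Thioacetamide (TAA) at 9.75 ± 0.261 and ethionine (ETH) at 9.68 ± 0.368, given at their own doses and for their own times, came next, and these 3 means did not differ beyond their spread. For miR-21 CIDB was first at 13.1 ± 0.217 and DMN second at 12.71 ± 0.20. For miR-192 CIDB was next to last at 10.39 ± 0.111, above ETH at 10.27 ± 0.024.

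Leukocyte miRNAs set CIDB apart from DMN. Of 6, 5 were lower in CIDB than in DMN and 0 higher, beside 13.6% of all tested miRNAs lower, with a median difference of -0.40. Among the 6, miR-146b was well above background on 0 arrays and miR-142-5p in 1 CIDB rat. miR-142-3p, a miRNA of blood leukocytes, was at 8.17, 8.30 and 8.12 in CIDB, at 8.86, 9.32 and 9.17 in DMN and at 8.42, 8.23 and 8.43 in CO set 3. CIDB was lower than DMN by 0.92 (SE 0.12, adjusted p = 1.73e-08 in limma). miR-146a, which dampens inflammatory signalling, was at 8.04, 8.05 and 8.25 in CIDB and at 8.43, 9.02 and 8.73 in DMN (difference -0.62, adjusted p = 1.77e-08). miR-223 was at 8.17, 8.31 and 8.35 in DMN (difference -0.55, adjusted p = 3.25e-12). The CIDB rats lay below all DMN rats in these 3 miRNAs, and none lay above the highest control. The summed intensity of the 6 was 1678 to 2096 units in DMN. With slide as a block the differences were -0.94, -0.69 and -0.53, all called.

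**Figure D5:**
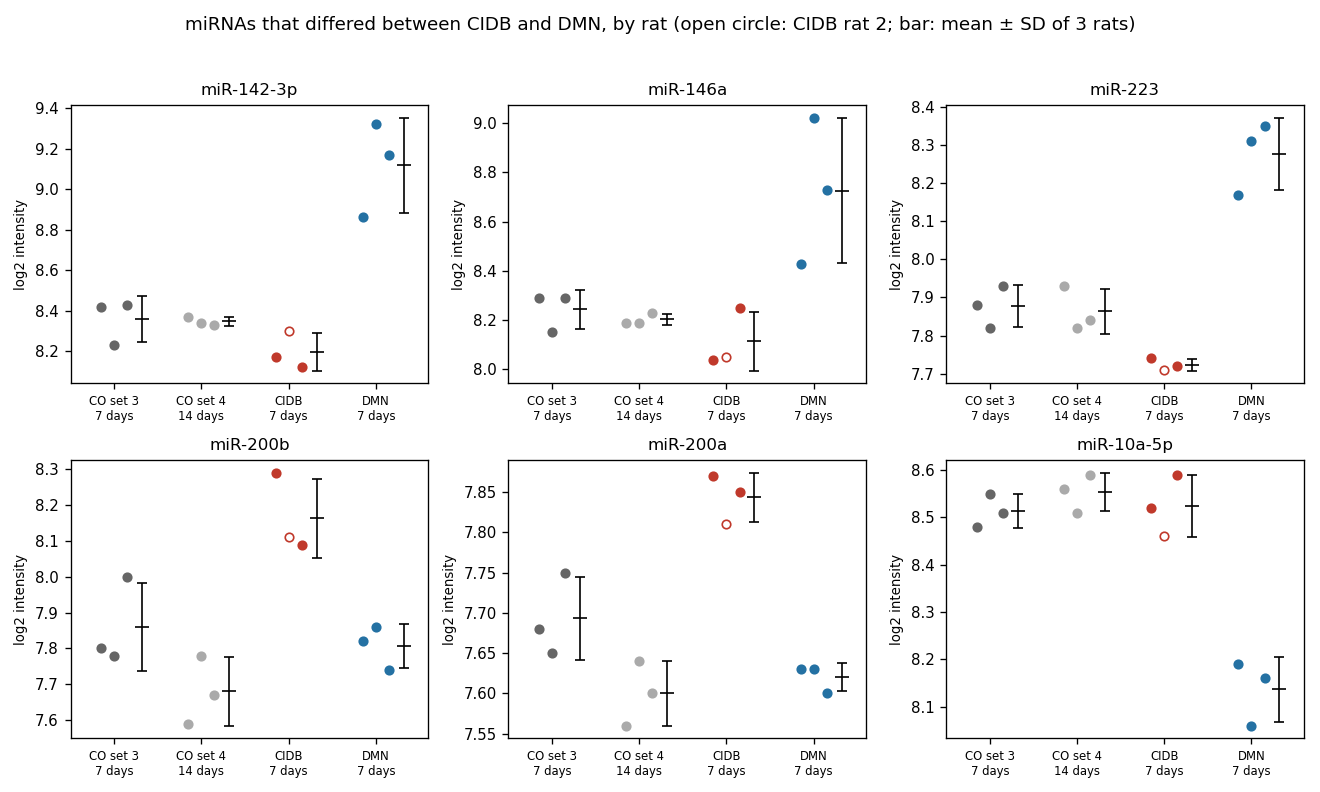
Log2 intensity (y axis, a scale of its own in each panel) of 6 miRNAs in each rat of CO set 3, CO set 4, CIDB and DMN, with the mean ± SD of 3 rats and CIDB rat 2 as an open circle. The leukocyte miRNAs miR-142-3p, miR-146a and miR-223 are high in DMN and not in CIDB, miR-200b and miR-200a are high in CIDB and not in DMN, and miR-10a-5p is low in DMN.

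The cell cycle miRNAs miR-15b and miR-16 were also lower in CIDB than in DMN. miR-15b was at 8.47, 8.36 and 8.40 in CIDB and at 8.89, 9.01 and 9.02 in DMN (difference -0.56, SE 0.07, adjusted p = 7.89e-09 in limma), and miR-16 differed by -0.53 (SE 0.10, adjusted p = 3.40e-05). Hepatocyte miRNAs differed in both directions. Of 7, 3 were lower and 2 higher in CIDB than in DMN, beside 13.6% and 19.1% of all tested miRNAs. The median difference of the list was -0.0043. miR-192 was at 11.06, 10.80 and 10.92 in DMN, the level of the controls, and lower by 0.53 in CIDB (SE 0.07, adjusted p = 2.38e-08). miR-193 was lower by 0.44 (SE 0.10, adjusted p = 0.000779). The processed signal gave -0.17 without a call for miR-192 and -0.84 for miR-193, and with slide as a block miR-193 was not called (-0.37, adjusted p = 0.0828).

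Of the miR-200 family 4 of 5 were higher in CIDB than in DMN, beside 19.1% of all tested miRNAs. miR-200b was at 7.82, 7.86 and 7.74 in DMN, below every CIDB rat (difference 0.36, SE 0.09, adjusted p = 0.00179 in limma), and miR-200a at 7.63, 7.63 and 7.60 (difference 0.22, adjusted p = 0.000461). miR-200c and miR-429, well above background in all CIDB rats and in 0 DMN rats, were at least 1.09-fold and at least 1.07-fold higher. miR-29c was higher by 0.32 (SE 0.07, adjusted p = 0.000280), while miR-29b did not differ by the test (0.07, adjusted p = 0.758).

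Other miRNAs differed from DMN although they were not called against CO set 3. miR-10a-5p, which comes from a Hox cluster, was at 8.52, 8.46 and 8.59 in CIDB and at 8.48, 8.55 and 8.51 in CO set 3, but at 8.19, 8.06 and 8.16 in DMN (difference 0.39, SE 0.06, adjusted p = 3.89e-07 in limma). miR-143, a miRNA of smooth muscle and stellate cells, was higher in CIDB than in DMN by 0.28 (adjusted p = 0.000107) and had -0.06 against CO set 3 (adjusted p = 0.469). Of the 7 tested miRNAs of stellate, smooth muscle and endothelial cells, 4 were higher in CIDB than in DMN, beside 19.1% of all tested miRNAs. Their summed intensity was 2090 to 2122 units in DMN, below that of the CIDB rats. miR-101b was higher than in DMN by 0.36 (adjusted p = 0.00865), and this depended on rat 2, whose 10.34 was the highest of the group. Without it the difference was 0.18 (adjusted p = 0.242), and with slide as a block -0.05. In contrast, miR-26a, miR-23b and miR-99a, all lower in CIDB than in CO set 3, did not differ from DMN by the test (-0.03, 0.13 and -0.02, adjusted p = 0.803, 0.0591 and 0.885), where they had also fallen from CO set 3 (-0.32, -0.43 and -0.25, adjusted p = 0.00116, 1.78e-08 and 0.0326).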

How the data were processed

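miRNA from 1 liver per rat was hybridized to 1-colour Agilent arrays. Per the file headers, the deposited scanner files (Feature Extraction 10.7.3.1) hold spot intensities, as mean brightness, local background and a background-subtracted processed signal. The authors also deposited a value table with log2 values of 135 miRNAs, for which the methods name RMA; its centring is not stated.

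Control spots and the 2.87% of spots flagged as outliers were dropped. Mean brightness was quantile-normalized without background correction, averaged per probe, log2-transformed and summarized by median polish (R 4.3.3). limma 3.58.1 was fitted to 63 arrays in 21 groups, with Benjamini-Hochberg adjustment over the 162 miRNAs detected on at least 1 array. No spot was saturated. The number of arrays limits the precision.

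The members and lists were chosen with earlier results of these data known. Named are the 12 miRNAs in each direction that changed most among those called without overlap of the groups, measured list members, the 5 with the largest called difference from DMN in each direction, and miRNAs well above background in all rats of 1 group and none of the other. The remaining called miRNAs were named after their values were seen.

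Alternatives were the processed signal scaled by the 75th percentile, normexp with an offset of 50, the value table, other filters, slide, scan day and replicate blocks, fewer groups, other references, trend and robust eBayes, and leaving out each rat. Settings that join another signal with leaving out CIDB rat 2 were chosen after seeing the data. In data simulated for CIDB vs. CO set 3 with 40 of 162 miRNAs changed, limma recovered 40 at 1 log2 unit, 39 at 0.3 and 24 at 0.1.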

Additional observations from a re-analysis of the deposited data

How the results depend on the processing

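For CIDB vs. CO set 3, main counts of 21 higher and 12 lower became 38 and 3 in the processed signal scaled over probes of detected miRNAs (35 and 4 without CIDB rat 2), and 13 and 3 scaled over all probes. They were 33 and 16 with all 6 corn oil rats as reference, 11 and 10 in a model of CIDB, CO set 3 and DMN alone, and 12 and 9 within scan day 1. The fit within the slide of CO set 3 has 1 CIDB rat, and its counts, which were smaller, are not given. Leaving out each rat in turn gave 13 to 21 higher, the lowest without control rat 5, and 11 to 12 lower. For CIDB vs. DMN, 31 higher and 22 lower became 12 and 17 with slide as a block, 14 and 14 in the small model and 43 and 12 in the signal scaled over all probes, with 26 to 33 higher and 17 to 23 lower when each rat was left out. With the replicate block 10 were higher and 7 lower. Rats 1, 2 and 3 of CIDB and DMN share a number, and the main fit assumed no pairing. Their deviations from the group means correlated with r of 0.19, 0.25 and -0.11, and those of rats with unlike numbers with -0.44 to 0.45. With 3 rats per group these values cannot decide whether the rats were paired. CIDB and CO set 3 share no replicate numbers. CO set 4 vs. CO set 3 gave 0 calls, 1 higher in the value table, and 0 to 2 higher and 0 to 1 lower when each rat was left out, with 2 higher without rat 1 of CO set 4 and 1 in each direction without control rat 4. Other counts stayed within 1.5 times the main ones.

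The direction turned, with a call in at least 1 of the settings, in the processed signal scaled over detected miRNAs for miR-122 (0.08), let-7a (0.36), let-7c (0.34), let-7f (0.37), miR-29a (0.43) and miR-214 (-0.02). Without CIDB rat 2 that signal gave 0.08, 0.37, 0.39, 0.38, 0.51 and -0.02 for these, and 0.33 for let-7b, 0.42 for let-7e and 0.37 for let-7i. Against DMN, miR-101b turned to -0.05 with slide as a block and miR-192 to 0.01 in the signal scaled over all probes. The cause was not tested. Over the named miRNAs and all settings, 2199 values kept direction and call, 197 lost the call, 92 gained it and 17 turned. In 56 both groups were at the floor of the signal. Signal over background limits the dim miRNAs, 9 of the 33 called being close to it.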

Other observations

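Further miRNAs separated CIDB from DMN. miR-106b, which lies with miR-25 and miR-93, was at 7.94, 7.93 and 7.97 in CIDB and at 8.05, 8.12 and 8.03 in DMN, lower in CIDB by 0.12 on the log2 scale (SE 0.03, adjusted p = 0.0012 in limma). miR-126, a miRNA of endothelial cells, was at 9.46, 9.49 and 9.60 in CIDB and at 9.29, 9.35 and 9.33 in DMN, a difference of 0.20 (SE 0.06, adjusted p = 0.00794). let-7e was at 8.10, 7.97 and 8.16 against 7.91, 7.87 and 7.95, a difference of 0.16 (adjusted p = 0.00179), and was the only member of its family that was called in this comparison. In miR-106b, miR-126 and let-7e the CIDB rats did not overlap with the DMN rats.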
